A study of Mus musculus with 2 samples.

Results

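Cytochrome P450 family 4 is represented here by 8 genes, Cyp4a10, Cyp4a12a, Cyp4a12b, Cyp4a14, Cyp4b1, Cyp4f13, Cyp4f14 and Cyp4f15. Probes were found by the gene name, current or older, that the array files give each probe. These 8 genes were chosen with earlier results of these data known. Together they have 11 probes, 4 for Cyp4a10 and 1 for each of the others, among the 26484 genes that have a probe on the array. All 8 were measured, of 16698 measured genes, that is, genes with a probe whose signal stood well above background on each array in at least 1 of the conditions, the same one each time. Kidney RNA from male CD-1 mice fed adenine with HMPA was compared with kidney RNA from male CD-1 mice fed adenine alone. HMPA, a phenolic compound whose full name is 3-(4-hydroxy-3-methoxyphenyl)propionic acid, made up 2% of the first diet by weight. Both diets were AIN-93G with 0.2% adenine, so both groups carry the kidney injury model and there was no group without adenine. Per the protocol in the labels the mice were 7 weeks old when the 1 week of feeding began, whereas the titles give 12 weeks of age and name 5 mice without saying whether RNA was pooled or whether the number is per diet. The conditions were hybridised together on 2 two-colour arrays. HMPA was red and adenine alone green on array 1, with the dyes swapped on array 2. The labels name no separate animals per array, so the pair was read as a dye swap of 1 RNA sample per condition, no p-value was computed, and the spread between animals is unknown. In a bulk kidney sample, fewer cells of a type and less RNA per cell cannot be told apart.

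Family 4 P450 enzymes sit in the membrane of the endoplasmic reticulum, where they receive electrons from P450 reductase and place a hydroxyl group at or near the far (omega) end of fatty acids and of eicosanoids such as arachidonic acid and leukotriene B4. The hydroxylated fatty acids can be oxidised to dicarboxylic acids and shortened in peroxisomes. In the kidney these enzymes are found mainly in the proximal tubule, the 4A enzymes are known for making the vasoactive omega-hydroxylated product of arachidonic acid, and mouse Cyp4a10 and Cyp4a14 are classical targets of the fatty acid receptor PPARA.

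The probe that shows each gene is printed because several of these genes are close copies, and what an array spot measures is set by its 60 bases. Capitals mark AATAAA, the signal for adding the poly(A) tail, which 2 of the 11 probes hold.
Cyp4a12a: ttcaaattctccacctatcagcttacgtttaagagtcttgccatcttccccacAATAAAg
Cyp4a12b: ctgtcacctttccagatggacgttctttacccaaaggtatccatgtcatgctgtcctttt
Cyp4a10: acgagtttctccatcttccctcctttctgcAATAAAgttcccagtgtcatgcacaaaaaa
Cyp4a14: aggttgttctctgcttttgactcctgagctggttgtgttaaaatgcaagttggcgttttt
Cyp4b1: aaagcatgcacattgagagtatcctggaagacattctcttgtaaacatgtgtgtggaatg
Cyp4f13: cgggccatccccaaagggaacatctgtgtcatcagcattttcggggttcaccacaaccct
Cyp4f14: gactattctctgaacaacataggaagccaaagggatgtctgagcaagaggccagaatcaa
Cyp4f15: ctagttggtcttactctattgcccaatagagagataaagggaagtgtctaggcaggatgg

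No 2 of the 11 probes share a run of more than 10 bases. The accessions that the files list for a probe still name 2 genes for 5 of the 11. The probes of Cyp4a12a and Cyp4a12b each list accessions of both of these genes, so their values cannot be assigned to one or the other with certainty. The Cyp4b1 probe also lists a pseudogene, Cyp4b1-ps2. In mouse build mm9, to which all probe positions refer, the Cyp4a12a probe lies at chr4:115005343-115005402, the Cyp4a14 probe at chr4:115158914-115158973, the Cyp4a10 probe at chr4:115206200-115206259 and the Cyp4b1 probe at chr4:115297527-115297586. The Cyp4a12b probe maps to chr4:115106662-115107596, a stretch of 935 bases for 60 probe bases, so it spans a splice junction. The Cyp4f15 probe lies at chr17:32840088-32840147, the Cyp4f14 probe at chr17:33042214-33042273, and the Cyp4f13 probe spans a junction within chr17:33062503-33062650. The 5 members on chromosome 4 therefore lie in one stretch of 292 kb and the 3 members on chromosome 17 in another of 223 kb.

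All 5 members on chromosome 4 were 4.48-fold to 10.4-fold higher with HMPA than with adenine alone. On chromosome 17, Cyp4f13 did not reach 2-fold. Cyp4f14 and Cyp4f15 were too dim with adenine alone for more than a lower bound, and they met or missed the rule depending on how the ratio was computed, with log2 ratios of 0.39 and 0.40 as processed here and of 3.44 and 3.02 by the scanner software's own ratio. Genes were counted by size, as higher or lower where the mean ratio over both arrays was at least 2-fold and each array gave at least 1.5-fold in the same direction. Under that rule 5 of the 8 members were higher (7 by the software's ratio), where 6.64% of all measured genes were. No member was lower, where 7.72% of all measured genes were. Cyp4f14 and Cyp4f15 were counted as measured only through their HMPA channels, which largely fixed their direction. The median log2 ratio of HMPA over adenine alone was 2.36 for the 8 members (2.18 on array 1 and 2.53 on array 2) and -0.04 for all measured genes. The members' median lay between Cyp4a10 and Cyp4a14, so setting the 2 dim genes at their lower bounds could not move it. By the software's ratio it was 3.13. Below, a ratio is followed by the distance of each array from the mean of both, for which the median over all genes was 0.11 (log2) and the 90th percentile 0.31.

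**Figure D1:**
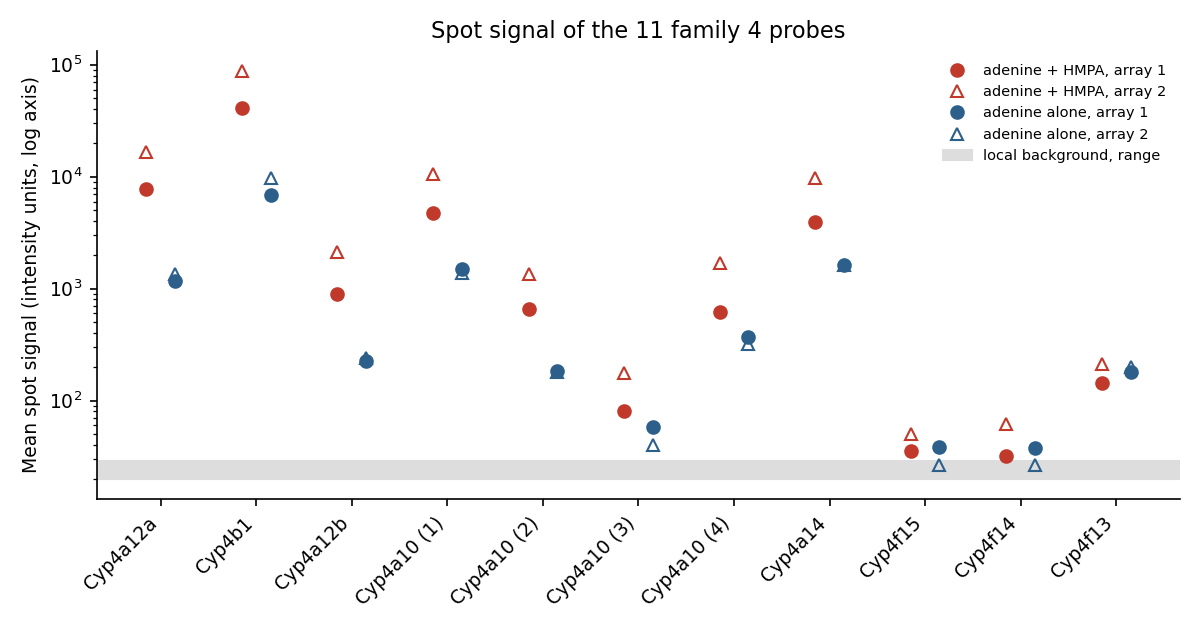
Mean signal of each of the 11 probes in the channel of each condition, in scanner intensity units on a log axis; filled circles are array 1, open triangles array 2, red adenine with HMPA, blue adenine alone, and the grey band the range of local background at these spots. Signals are to be compared within a probe and array only; the 8 probes of chromosome 4 members are higher with HMPA on both arrays, while Cyp4f14 and Cyp4f15 sit near the background.

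Cyp4a12a, the main arachidonic acid omega-hydroxylase of the male mouse kidney and an androgen-induced gene, had signals of 7685 and 16473 with HMPA on arrays 1 and 2, against 1166 and 1358 with adenine alone. These are raw means of spot pixels in scanner units, which carry the dye of the array. Both HMPA signals lay above both adenine signals. Overlap of raw signals is given here and below as a description only, without its share over all measured genes. After normalization the log2 ratio was 3.40 on array 1 and 3.35 on array 2, a mean of 3.37 ± 0.03 or 10.4-fold, the 33rd highest ratio of all measured genes.

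Cyp4a12b is the close copy of Cyp4a12a and its enzyme has the same activity. Its signals were 887 and 2113 with HMPA, against 225 and 241 with adenine alone, and again did not overlap. The log2 ratio was 2.73 on array 1 and 2.95 on array 2, with a mean of 2.84 ± 0.11 or 7.15-fold. Its 2 array values lay below both of Cyp4a12a, by more than the arrays differed for either gene.

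Cyp4a10 hydroxylates lauric acid and other medium and long fatty acids. Its brightest probe gave 4776 and 10594 with HMPA, against 1488 and 1381 with adenine alone. The log2 ratio was 2.39 on array 1 and 2.71 on array 2, with a mean of 2.55 ± 0.16 or 5.85-fold. The other 3 Cyp4a10 probes were also higher with HMPA on both arrays, but by different amounts. The probe at chr4:115198154-115198213 gave 657 and 1347 with HMPA, against 183 and 178 with adenine alone, a log2 ratio of 2.66 ± 0.07. The probe within chr4:115205268-115205756 gave 614 and 1682 with HMPA, against 370 and 322 with adenine alone, a log2 ratio of 1.90 ± 0.34. The dimmest, within chr4:115197445-115197926, gave 81.3 and 175 with HMPA, against 58.4 and 39.7 with adenine alone, a log2 ratio of 1.35 ± 0.29. Over the 4 probes the mean log2 ratio was 2.11 with an SD of 0.61, an SD between probes of 1 gene and not between samples. The accessions listed for the 1.90 and 1.35 probes also name Cyp4a32.

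Cyp4a14, like Cyp4a10 a PPARA-induced fatty acid hydroxylase, had signals of 3926 and 9692 with HMPA, against 1630 and 1627 with adenine alone. The groups did not overlap. Array 1 gave a log2 ratio of 1.98 and array 2 one of 2.35. Their mean of 2.16 ± 0.18, or 4.48-fold, was the smallest of the 5 members on chromosome 4, each taken by its brightest probe. Still, only 1.22% of all measured genes had a larger ratio.

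Cyp4b1, which acts on shorter fatty acids and activates several plant toxins, was measured far above background. Its signals were 41041 and 87652 with HMPA, against 6848 and 9764 with adenine alone, again without overlap. No spot was saturated. The log2 ratio was 3.10 on array 1 and 2.74 on array 2, with a mean of 2.92 ± 0.18 or 7.56-fold.

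Of the 3 members of subfamily 4F only Cyp4f13 was above background in all 4 channels. It had signals of 144 and 212 with HMPA, against 178 and 198 with adenine alone, so that the conditions overlapped. Its log2 ratio was 0.61 on array 1 and 0.09 on array 2, with a mean of 0.35 ± 0.26, the widest gap between arrays among the probes that show the 8 genes. Cyp4f14 is a leukotriene B4 omega-hydroxylase, an enzyme that inactivates this attractant of neutrophils. Its signals were only 31.8 and 62.0 with HMPA, against 37.9 and 26.5 with adenine alone, over local backgrounds between 20 and 29 at the members' spots. Cyp4f15, a further 4F enzyme, was as dim, with 35.1 and 49.8 with HMPA, against 38.3 and 26.3 with adenine alone. For both genes the conditions overlapped in raw signal, and neither was well above background with adenine alone on both arrays. They are therefore given as bounds against the background floor, formed from the mean of both arrays. By that measure Cyp4f14 was at least 1.29-fold and Cyp4f15 at least 1.27-fold higher with HMPA. These bounds do not hold for each array alone, since Cyp4f14 fell below its bound on array 1. Their measured log2 ratios were 0.39 ± 0.16 for Cyp4f14, from 0.23 on array 1 and 0.55 on array 2, and 0.40 ± 0.03 for Cyp4f15, from 0.43 and 0.37.

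These 2 dim genes are the members whose result depended on the processing. With the ratio that the scanner software itself computed, Cyp4f14 had a log2 ratio of 3.44 and Cyp4f15 one of 3.02, and 7 of 8 members met the rule as higher. That ratio is built on a different background subtraction and dye normalization. The 153 negative control spots of array 1 had a median signal of 22.5 in the HMPA channel and 33.6 in the adenine channel, over median local backgrounds of 22 and 25. On array 2 the same spots had 33.5 in the HMPA channel and 22.9 in the adenine channel, over local backgrounds of 24 and 22. Cyp4f14 exceeded that median by 9.25 and 28.5 units with HMPA on arrays 1 and 2, against 4.24 and 3.57 units with adenine alone. Cyp4f15 exceeded it by 12.6 and 16.3 units with HMPA, against 4.66 and 3.39 units with adenine alone. Both genes were counted as measured only through their HMPA channels, so which side was higher was largely fixed by that filter. At these few units of signal the data do not settle the size of the ratio. Cyp4f13, above background in all 4 channels, had a log2 ratio of 0.54 by the software's own ratio.

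**Figure D2:**
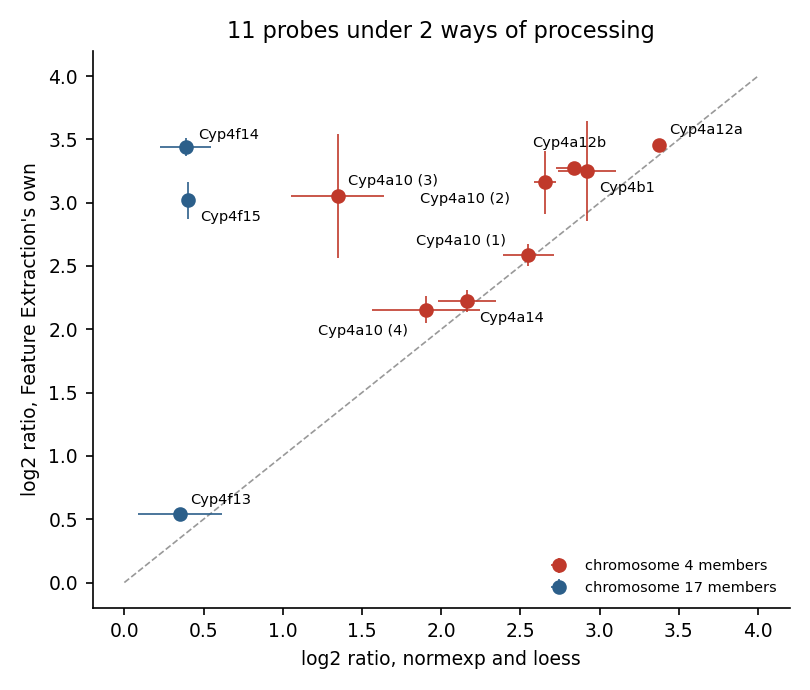
Mean log2 ratio of HMPA over adenine alone for the 11 probes, computed with normexp background correction and loess (horizontal axis) and by Feature Extraction (vertical axis); bars reach to the values of the 2 arrays, the dashed line marks equal values, and numbers in brackets tell the 4 Cyp4a10 probes apart. Cyp4f14 and Cyp4f15 lie far above the line, at 3.44 and 3.02 against 0.39 and 0.40, and the dimmest Cyp4a10 probe at 3.06 against 1.35.

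The brighter members moved less with that choice. By the software's ratio Cyp4a12a was 3.46, Cyp4a12b 3.28, Cyp4b1 3.25, the main Cyp4a10 probe 2.58 and Cyp4a14 2.22 on the log2 scale. The dimmest Cyp4a10 probe was 3.06 in place of 1.35, so the spread among Cyp4a10 probes changed its order with the processing. Over 9 alternative settings all 5 members on chromosome 4 met the rule as higher in each, with log2 ratios of 3.24 to 3.46 for Cyp4a12a, 2.74 to 3.25 for Cyp4b1, 2.53 to 3.28 for Cyp4a12b, 2.11 to 2.71 for Cyp4a10 and 1.98 to 2.35 for Cyp4a14.

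In order of the mean ratio the 6 members above background in all 4 channels ran Cyp4a12a, Cyp4b1, Cyp4a12b, Cyp4a10, Cyp4a14 and Cyp4f13. Cyp4f14 and Cyp4f15, known only as bounds, have no place in this order. Of the 5 pairs of neighbours the array values overlapped in 1, Cyp4b1 with Cyp4a12b, which were not separated beyond the difference between arrays. The place of Cyp4a10 above Cyp4a14 holds for its brightest probe only. With the mean over all kept probes Cyp4a10 was 2.11 and Cyp4a14 2.16, which turns their order. The widest step lay between Cyp4a14, at 1.98 or more on each array, and Cyp4f13, at 0.61 or less. The order is one of ratios, not of levels, since signals of different probes cannot be set against each other.

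**Figure D3:**
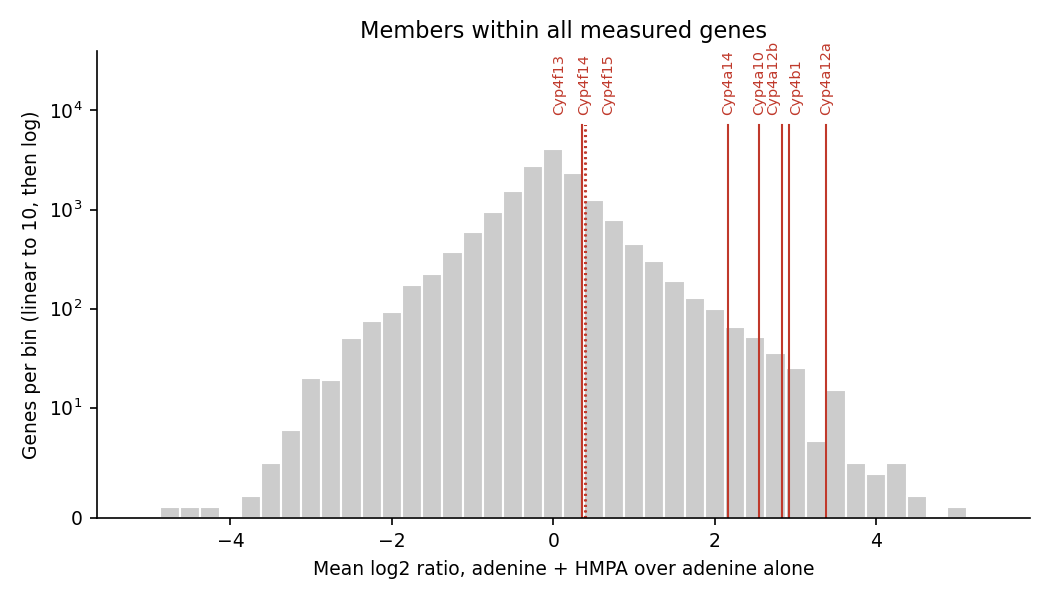
Number of genes in each bin of 0.25 log2 units by mean ratio of HMPA over adenine alone, for all 16698 measured genes (vertical axis linear to 10, then log), with red lines at the 8 members, dotted for Cyp4f14 and Cyp4f15, whose values are not above background with adenine alone. The 5 members on chromosome 4, from 2.16 to 3.37, lie in the right tail and Cyp4f13 near the centre; by the scanner software's ratio the dotted lines would stand at 3.44 and 3.02.

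Of 13 further family 4 genes, 9 have a probe and 6 were measured, and as processed here these did not share the large ratios. Cyp4a31, a neighbour in the chromosome 4 cluster, had a log2 ratio of 1.06 ± 0.30 and was the only one to meet the rule as higher. It was 0.83 with median centring and 0.76 on array 1 alone, both short of 2-fold. By the software's ratio it was 2.30, above the 2.22 of the member Cyp4a14. Its probe was dim, with 71.0 and 162 with HMPA, against 68.1 and 46.6 with adenine alone. Cyp4f17 (0.13 ± 0.08) and Cyp4x1 (-0.02 ± 0.07), an enzyme known mainly from brain, were near 0, and Cyp4f16 was -0.49 ± 0.21. Cyp4f18, which hydroxylates leukotriene B4 in mouse neutrophils, was lower with HMPA at -0.84 ± 0.06, and Cyp4v3, the mouse counterpart of the human retinal dystrophy gene CYP4V2, was -0.93 ± 0.05. Both fell just short of 2-fold, and both met the rule as lower with an offset of 16, without background correction, with median centring and by the software's ratio, where Cyp4f18 was -2.01 and Cyp4v3 -1.02. The median of the 6 was -0.25. Beside Cyp4f18, 3 of 4 measured neutrophil markers and 7 of 7 macrophage markers were lower with HMPA, with medians of -2.03 and -2.05. Summed neutrophil marker levels were 752 and 711 with HMPA, against 6565 and 5461 with adenine alone (normalized intensity), and their part in the Cyp4f18 value was not tested.

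**Figure D4:**
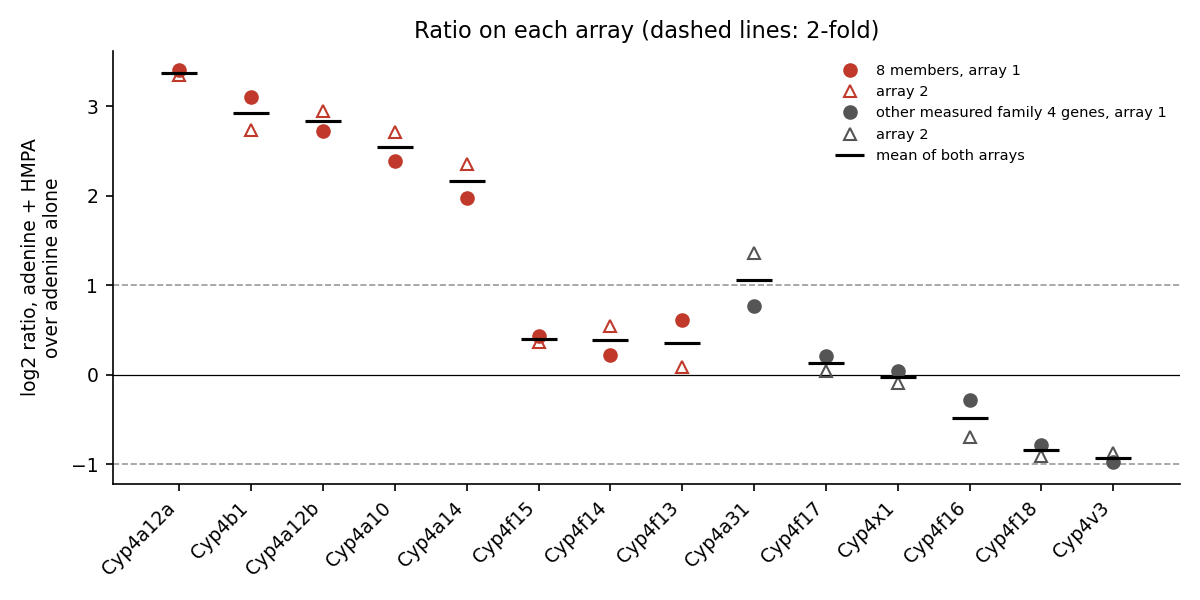
Log2 ratio of HMPA over adenine alone on array 1 (circles) and array 2 (triangles) for the 8 members (red) and the 6 other measured family 4 genes (grey), with the mean as a bar and 2-fold as dashed lines. Only Cyp4a31 among the other genes has a mean above 1.

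The proximal tubule, where these enzymes are mainly made, was represented by a list of 13 marker genes, and 12 of the 13 were higher with HMPA. Their median log2 ratio was 2.64, with a range of 0.69 to 5.03. Their summed normalized level was 288783 and 276528 with HMPA, against 38722 and 55998 with adenine alone. The 5 members on chromosome 4 lie inside that range, at 2.16 to 3.37. Among other cell types, 2 of 5 markers of the thick ascending limb and distal convoluted tubule and 3 of 5 of the collecting duct were higher, with medians of 0.49 and 1.09. All 6 fibroblast markers were lower (median -1.83), 2 of 4 fat cell markers were lower (median -1.54), and 0 of 4 endothelial markers met the rule (median -0.21). Of 3 measured hepatocyte markers 1 was higher (median 0.82), at summed levels of 347 and 400 with HMPA, against 223 and 224 with adenine alone. Over the alternatives the proximal tubule count ran between 11 and 12, that of fibroblast markers between 5 and 6 and that of macrophage markers between 6 and 7, the lower end of both of these with the mean over all kept probes. Of the smaller lists, those of the collecting duct (2 to 4 higher), the thick ascending limb (1 to 2 higher), hepatocytes (0 to 3 higher), neutrophils and fat cells (2 to 3 lower each) changed by a call or more. The part of a change in cell makeup in the family 4 ratios was not tested.

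The electron donors of P450 enzymes moved in the same direction by smaller amounts, 3 of 4 being higher (median 1.15). Por, the P450 reductase that feeds all family 4 enzymes, had a log2 ratio of 1.20 ± 0.01. Cyb5a, the cytochrome b5 of the endoplasmic reticulum, was 1.99 ± 0.16, and Cyb5b, the mitochondrial form, 1.09 ± 0.18, or 0.91 on array 1 alone and 0.94 with median centring. Cyb5r3, the cytochrome b5 reductase, was -0.18 ± 0.10 and was the 1 donor that did not meet the rule.

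Genes listed for the steps that follow omega-hydroxylation, namely dehydrogenation to dicarboxylic acids, activation of acids to acyl-CoAs and their transport into and shortening in peroxisomes, were higher in 11 of 18 measured cases and lower in 0 (median 1.60). Acsm3, listed as an acyl-CoA synthetase of medium-chain acids but mitochondrial and not peroxisomal, had the largest log2 ratio at 4.38 ± 0.31, and Amacr, which turns branched acyl-CoAs into the form that can be oxidised, was 3.23 ± 0.10. Ehhadh, the bifunctional enzyme of peroxisomal dicarboxylic acid oxidation, was 2.79 ± 0.02. Ehhadh also stands in a list that holds Ppara, its partner and coactivator and its targets. Of that list 21 of 37 measured genes were higher and 0 lower (median 1.16). The higher count ran between 17 and 23 over the alternatives and the lower between 0 and 2. Creb3l3, a transcription factor named after its values were seen, met the rule as lower under 5 of the 9, with -1.03 on array 1 alone and -1.51 by the software's ratio. Among the higher genes were Acot12, an acyl-CoA thioesterase, at 3.50 ± 0.24, Vnn1, a pantetheinase, at 2.77 ± 0.01 and Acot4, a peroxisomal thioesterase, at 2.48 ± 0.04. Ppara itself, the receptor that induces Cyp4a10 and Cyp4a14, was 1.22 ± 0.15, and 0.94 with median centring.

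Other enzymes of eicosanoid metabolism did not move as 1 group: 6 of 25 were higher, 2 were lower, and the median was -0.05. Of all measured genes 6.64% were higher and 7.72% lower, so that 2 lower of 25 enzymes is near the share of all genes. The lower count was 4 with an offset of 16, with median centring and on array 2 alone, and 5 by the software's ratio. Cyp2j11 (3.76 ± 0.11, and 3.14 as the mean of its probes) and Cyp2j5 (1.96 ± 0.11), members of the subfamily that epoxidises arachidonic acid in mouse kidney, were higher, as were Ephx2, the soluble epoxide hydrolase that removes such epoxides (2.24 ± 0.56), and Ggt1, which trims leukotriene C4 (2.26 ± 0.17). The 2 lower genes, named after their values were seen, were Alox5ap, the helper protein of leukotriene synthesis (-1.64 ± 0.05), and Pla2g4a, the phospholipase that releases arachidonic acid (-1.43 ± 0.14). Alox5ap is known mainly from leukocytes, whose markers were lower as given above, and their part in its value was not tested.

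Androgen-responsive kidney genes are of interest because androgen induces Cyp4a12a and Cyp4b1 in mouse kidney. Of 6 such genes 4 were higher, none was lower and the median was 2.55. Kap, the kidney androgen-regulated protein, was 3.90 ± 0.11, Slco1a1, an organic anion transporter, 3.60 ± 0.18, Odc1, ornithine decarboxylase, 2.95 ± 0.04 and Nudt19 2.15 ± 0.01. Several of these genes are also made mainly in the proximal tubule.

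**Figure D5:**
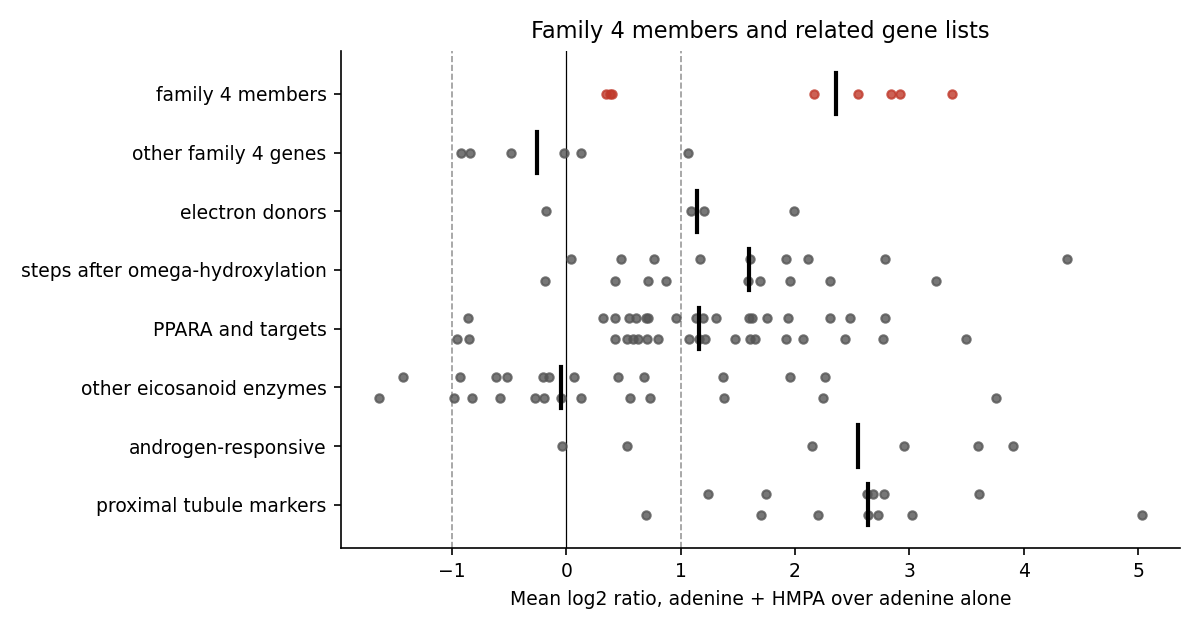
Mean log2 ratio of HMPA over adenine alone for every measured gene of the family 4 members (red) and of 7 related lists (grey), with the median of each as a black bar and 2-fold as dashed lines. The median is 2.36 for the members, 2.64 for proximal tubule markers, 2.55 for androgen-responsive genes, 1.16 for PPARA and its targets and -0.25 for the other family 4 genes.

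The large ratios on chromosome 4 were not shared by the named genes outside family 4 around the cluster. Within 250 kb of the members' probes, 6 entries not named as family 4 genes were measured. Of these, 0 of 6 met the rule in either direction, where 6.64% of all measured genes were higher and 7.72% lower. The median log2 ratio of the 6 was 0.21, with a range of -0.43 to 0.85. Among the 6, 1 is known only by its probe, next to that of Cyp4a31, and its gene is not known. Around the chromosome 17 members 0 of 10 such entries were higher and 1 was lower, with a median of -0.01. With so few entries, the counts around both clusters are a description and cannot be told apart from the shares over all measured genes.

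By its values on the 2 arrays, the gene most like Cyp4b1 among 13412 other genes above background in all 4 channels, leaving out those named only by an accession or a clone, was Slc18a1, a vesicular amine transporter, at a Euclidean distance of 0.028 (log2). Next came Slc22a19, an organic anion transporter, at 0.107 and Acsm2, a medium-chain acyl-CoA synthetase, at 0.109. With 2 values per gene this likeness is a description of ratio size alone.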

How the data were processed

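Kidney RNA was hybridised on 2 two-colour Agilent arrays per the labels' protocols. Per the file headers the authors quantified spots with Feature Extraction 12.2.0.7; the submitters' processing notes name version 9.5. The deposited signal columns hold intensity, averaged over the pixels of a spot, with a local median as background, neither of them normalized. The deposited ratio is a log10 of red over green after the authors' background subtraction and dye normalization, and the deposited table of values matches that log10 ratio within 0.00499, with a median of 0 in each column and no turn for the dye swap.

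From the intensities, limma 3.58.1 (R 4.3.3) corrected background by normexp (offset 50), gave control and unreliable spots a weight of 0 and normalized by loess within array. All ratios run as HMPA over adenine alone. Repeat spots were averaged. Kept were probes well above background on both arrays in at least 1 condition (25138 of 41174 probes), and a gene was shown by its brightest kept probe. A gene dim in 1 condition is given as "at least" a fold, the mean of its bright channels over the higher of the dim signal or the lowest signal well above background, after loess and between-channel scaling. Tables were handled with Python 3.11.15, pandas 2.3.3 and numpy 2.4.6, and figures drawn with matplotlib 3.10.9. Of the kept probes, 21374 were named from RefSeq by accession, 1932 by symbol, 8 by an older symbol and 1824 kept the file's name.

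Of 45018 spots 43379 measured genes. In these, 57.9% and 61.2% of spots were well above background with HMPA, against 60.9% and 67.9% with adenine alone (arrays 1 and 2). The number of arrays limits the precision. Genes were counted by size and not by a test. Named were all members and measured family 4 genes, up to 4 genes of each other list with the largest ratio among those that met the rule, Por, Ppara and Kap, and the 3 genes nearest to the brightest member. Some of the genes so chosen are not reported here. The members and lists were chosen with earlier results of these data known. Alternatives changed background correction, normalization, source of the ratio, probe choice, dim filter and array.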

Additional observations from a re-analysis of the deposited data

How the results depend on the processing

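The labels do not say whether RNA was pooled or whether the arrays hold separate animals; read as a dye swap, the values describe 1 RNA sample per condition. All 5 members on chromosome 4 met the rule as higher under 9 of 9 alternatives, and Cyp4f13 met it under none. By Feature Extraction's own ratio Cyp4f14 was 3.44 and Cyp4f15 3.02, which made 7 members higher and the median of the members 3.13; the median was 2.69 with probes above background in all 4 channels, which leave out those 2 genes. The same ratio gave 2043 higher and 2461 lower genes of all measured, against 1109 and 1289 in the report. Median centring gave 1973 lower, moved the median of all genes to -0.22 and left 27.5% of the counted genes on the higher side, in place of 46.2%. In the related lists together 2 genes were lower, against 7 with an offset of 16, 6 without background correction, 7 with median centring, 8 by Feature Extraction's ratio and 4 to 6 on 1 array alone. No member turned its direction, which for Cyp4f14 and Cyp4f15 was largely fixed by the filter on dim probes. Signal limits the dim genes: Cyp4f14 and Cyp4f15 were not well above background with adenine alone. The ratio formed within each array already pairs the conditions, so no other paired fit was made.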
